A study of Mus musculus with 2 samples.

Results

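The Nuclear factor I (NFI) family of the mouse consists of 4 transcription factor genes, Nfia, Nfib, Nfic and Nfix, which were followed here through a genome-wide map of lysine-specific demethylase 1 (LSD1) in brown adipocytes. The genes were chosen by name, as 4 of the 21853 protein-coding genes of the annotation (GENCODE M21 on the mm10 assembly). For each gene every LSD1 peak within 1 kb of any protein-coding start was taken, and every peak from 50 kb upstream of the gene to 50 kb past its end, a span called its window below. Position, width and score of the 118 peaks found in this way make up the data.

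NFI proteins bind DNA as dimers at a palindromic site made of TTGGC and GCCAA separated by a spacer of 5 bases, and bind more weakly to single copies of the element. They share a conserved DNA-binding domain and differ mainly in their C-terminal regions, which can activate or repress transcription. NFIA is known to act with PPARγ at enhancers of the brown fat gene programme, and NFIB has been described in adipocyte regulation as well. LSD1, encoded by Kdm1a, is a histone demethylase that is best known from corepressor complexes, in which it is bound to CoREST proteins.

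The series holds 2 libraries, 1 LSD1 immunoprecipitate made with a homemade antibody and 1 input DNA library without antibody, both from primary brown adipocytes after differentiation, of C57BL/6 N background and the genotype Control. The cells had been passaged 2 to 3 times and were kept with 20% fetal bovine serum. Their differentiation mixture contained 1 µM rosiglitazone, 1 nM T3, 500 µM isobutylmethylxanthine, 850 nM insulin, 125 nM indomethacin and 1 µM dexamethasone, and they were fixed for 5 min on day 10. The processed data are 1 list of 59175 peaks of the LSD1 library. With 1 library there are no replicates and no test between groups, and the depth is unknown because no read counts come with the peaks. The score of a peak is the authors' own value, on a scale that these sources do not state, so it only ranks peaks within the list, where its median was 111 (quartiles 86.7 and 193) and the highest decile began at 391. A peak list holds no expression, so the labelled cell type was not checked against the expression of its markers, and how strongly each NFI gene was transcribed was not measured.

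All 4 NFI genes carried LSD1 within 1 kb of a start, but at very different scores. The highest promoter score was 1088 at Nfia, followed by 800 at Nfic, 417 at Nfix and 180 at Nfib. Among all protein-coding genes 55.8% had such a peak, and among genes whose promoter CpG ratio was at least that of the lowest NFI gene 91.3% did, so a count of 4 of 4 is near that second background. Among the genes with a promoter peak, whose median highest score was 315 (quartiles 156 and 570), Nfia stood at percentile 93.6, Nfic at 86.9, Nfix at 62.0 and Nfib at 29.0. Nfia and Nfic were thus above the upper quartile, Nfix lay between the median and the upper quartile, and Nfib lay between the lower quartile and the median.

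The windows together spanned 1322 kb and held 33 peaks at Nfia, 21 at Nfib, 29 at Nfic and 35 at Nfix. Relative to length this was 7.40, 4.07, 18.2 and 17.5 peaks per 100 kb, beside a median of 3.54 over the windows of all genes. Nfic and Nfix, the shorter members of the family, had the densest windows, at percentiles 99.0 and 98.7 of all genes. Nfia was at 79.2 and Nfib at 55.7. In the Nfic window 13 of the 29 peaks lay outside the gene, and in the Nfix window 16 of the 35. Of the 118 peaks, 12 lay within 1 kb of a start of an NFI gene, 70 elsewhere inside an NFI gene, 15 within 1 kb of a start of a neighbouring protein-coding gene and outside the NFI gene, and 21 in the remaining flanks (10 upstream and 11 downstream). By midpoint, 79 peaks were intronic to an NFI gene, 2 were in coding exons and 37 were outside. The genes made up 922 of the 1322 kb, so most of the length of the windows was inside them. Peaks above the median score of the list made up 18, 8, 20 and 23 of the peaks of Nfia, Nfib, Nfic and Nfix, and 69 of 118 in all (58.5%, beside 50% of the list). The highest score decile held 5, 1, 8 and 3 of them, 17 in all (14.4%, beside 10.0%). Neighbouring genes carried this excess, since 6 of the 17 lay at their starts, 5 of them around Nfic, and 11 of the other 103 peaks (10.7%) reached that decile. Of the 82 peaks at starts of an NFI gene or inside it, 42 (51.2%) were above the list median and 9 (11.0%) in the highest decile, near the shares of the list.

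**Figure D1:**
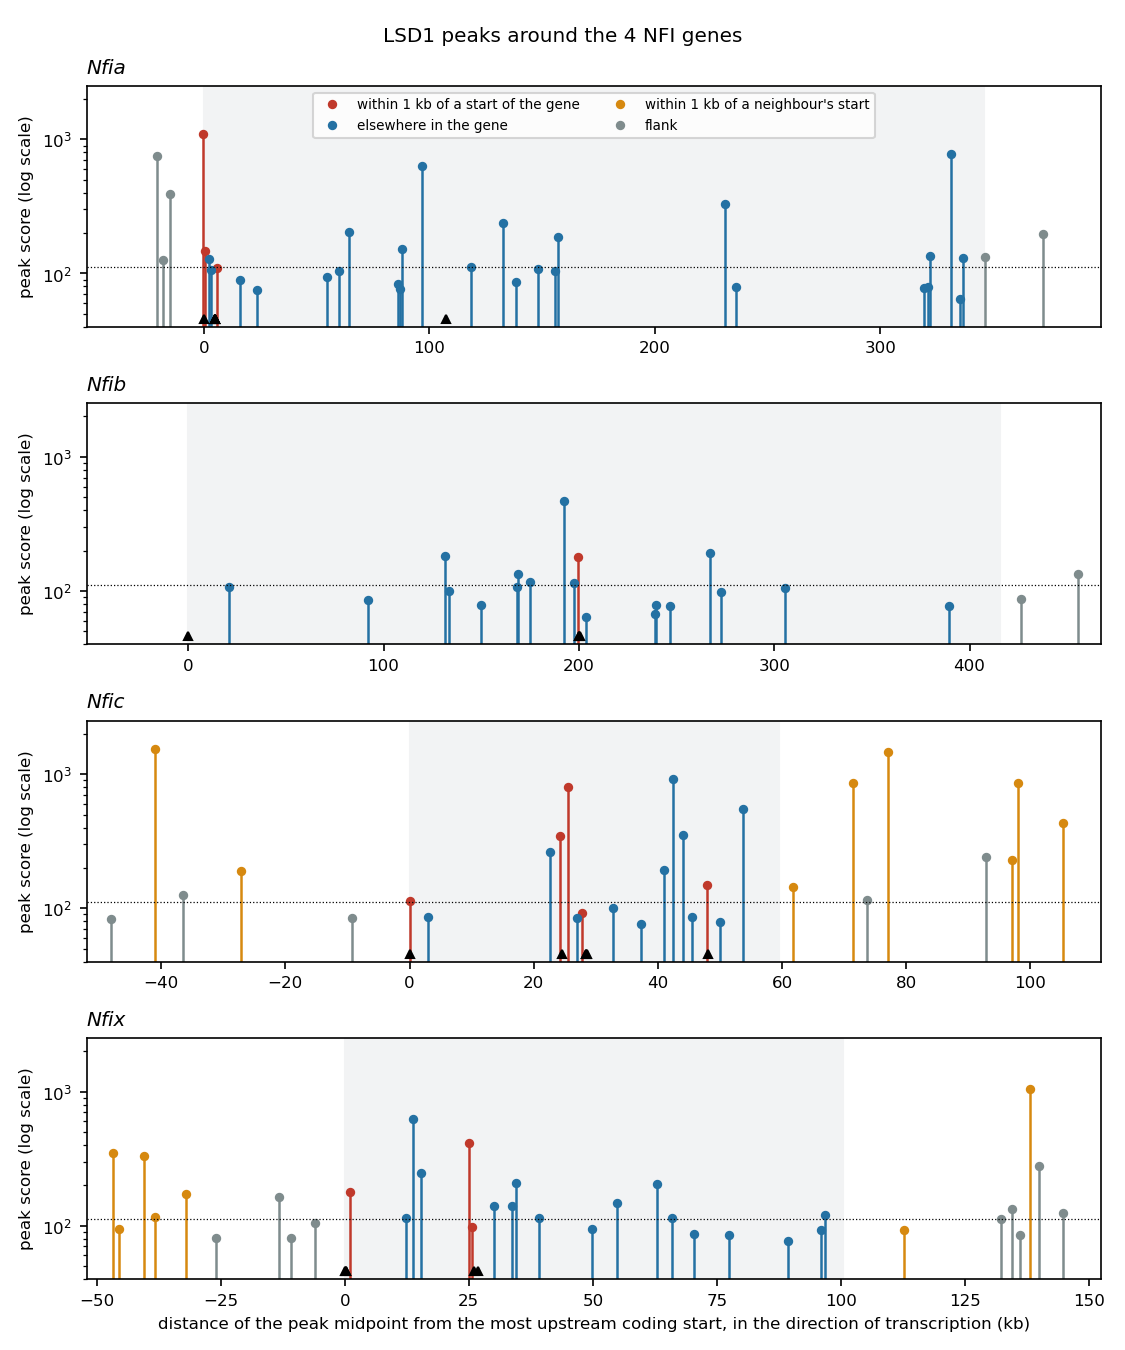
LSD1 peaks in the 4 NFI windows, with the distance of each peak midpoint from the most upstream coding start on the x axis (kb, along the direction of transcription) and the score at the height of each point on the y axis (log scale). Shading marks the gene, triangles its protein-coding starts, the dotted line the median score of the list (111), and the colours the place of the peak; the highest peaks in the Nfic and Nfix windows sit at starts of neighbouring genes, and those of Nfia and Nfib do not.

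Nfia (chr4:97772734-98118874, plus strand, 346 kb), the member best known from brown fat, had its highest peak at its most upstream start. This peak, chr4:97771770-97772806, was 1037 bp wide, scored 1088 and covered the start of transcript Nfia-208. The same sequence lies within E130114P18Rik, a gene on the opposite strand that is annotated as protein-coding and overlaps the 5′ end of Nfia, so the peak cannot be assigned to 1 of the genes. The other starts of Nfia sit about 5 kb farther along, where 5 transcripts begin between 97777608 and 97777834. No peak covered them, and the nearest, chr4:97778100-97778861, lay 266 bp downstream in intron 1 with a score of 110. This peak also lay within 1 kb of the start of E130114P18Rik, so it too cannot be assigned to 1 of the genes. A peak of 146 (chr4:97773096-97773779) completed the 3 peaks within 1 kb of Nfia starts, and a pair of peaks of 128 and 105 filled the stretch up to 1411 bp before the group of 5 starts. The peaks of 146, 128 and 105 also lay within E130114P18Rik, so the same limit holds for them. The centre of the highest peak is shown because it carries the top promoter score of the family. Its 200 bases (chr4:97772188-97772387 in mm10, plus strand) hold 17 CpG dinucleotides, in capitals, at a GC content of 70.5%.
Nfia start peak: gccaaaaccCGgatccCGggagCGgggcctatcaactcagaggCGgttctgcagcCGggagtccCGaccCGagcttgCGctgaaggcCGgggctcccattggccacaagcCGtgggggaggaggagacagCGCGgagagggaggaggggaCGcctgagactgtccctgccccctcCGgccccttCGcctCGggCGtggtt

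Inside Nfia, 27 peaks were intronic, and 16 of these lay in introns 1 and 2. Peaks with their midpoint in the gene, those near starts included, came to 7.80 per 100 kb. This was percentile 90.8 of the 4986 genes of at least 50 kb, whose median was 2.32. The highest peak away from the starts, chr4:98103421-98104704 with a score of 779, lay in intron 10, the last intron of the reference transcript, 223302 bp from the nearest start. The next was chr4:97750989-97753085, which lay 19.6 kb upstream of Nfia inside E130114P18Rik and scored 753 over 2097 bp. A peak of 637 in intron 2 (chr4:97868633-97870020) and a peak of 329 in intron 4 (chr4:98003370-98004581) followed. A peak of 394 upstream (chr4:97757073-97758490) lay at the start of the noncoding gene Gm12676, also inside E130114P18Rik. The remaining peaks were lower, down to 64.5, and the longest stretch without a peak was 83.0 kb. The centre of the intron 10 peak is given for comparison with the start peak, since it had 4 CpG dinucleotides (capitals) in 200 bases and a GC content of 49.5% (chr4:98103962-98104161, plus strand).
Nfia intron 10 peak: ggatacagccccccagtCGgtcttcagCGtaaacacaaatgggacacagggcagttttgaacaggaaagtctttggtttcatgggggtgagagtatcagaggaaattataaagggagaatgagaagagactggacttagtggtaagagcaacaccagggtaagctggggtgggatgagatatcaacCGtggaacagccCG

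Nfib (chr4:82290173-82705750, minus strand, 416 kb), which acts in lung and brain development, was the longest of the 4 genes and had the fewest and lowest peaks. Its 21 peaks had a median score of 106, and 1 of them reached the highest decile of the list. The 6 transcripts of its main start group begin between 82505308 and 82505770, and the single promoter peak, chr4:82506033-82506814 with a score of 180, ended 263 bp upstream of them. The far upstream start of Nfib-212, at 82705750, had its nearest peak 20.6 kb away. The highest peak of the gene was instead chr4:82512519-82513978, 1460 bp wide with a score of 467, which began 6749 bp upstream of the main starts in an intron of the longer transcript. The other high peaks scored 191 in intron 2 (chr4:82437984-82438771), 181 (chr4:82573981-82574543) and 134 (chr4:82536460-82537266) in introns upstream of the main starts, and 134 beyond the gene (chr4:82250115-82250726). Peaks inside the gene, the promoter peak included, were 4.57 per 100 kb, at percentile 74.7 of long genes. The centre of the 467 peak is shown because it differs from the other distal peaks in composition. Its 200 bases (chr4:82513148-82513347, plus strand) hold 30 CpG dinucleotides (capitals), at a GC content of 80.0% and a CpG ratio, observed over expected from base content, of 0.941.
Nfib upstream peak: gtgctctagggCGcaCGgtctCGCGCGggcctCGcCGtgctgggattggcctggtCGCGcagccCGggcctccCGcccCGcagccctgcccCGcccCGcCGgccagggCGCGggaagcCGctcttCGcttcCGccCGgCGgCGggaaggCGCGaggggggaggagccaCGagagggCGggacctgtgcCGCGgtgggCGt

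Nfic (chr10:81396186-81455635, minus strand, 59.5 kb), known for its part in tooth root formation, had the densest body of the family. Its 16 peaks inside the gene, those near starts included, came to 26.9 per 100 kb, at percentile 99.9 of long genes. There were 5 peaks within 1 kb of its 6 starts. Peaks covered the start of Nfic-205 (chr10:81407290-81408053, score 148, midpoint in a coding exon), of Nfic-204 (chr10:81430905-81431836, score 347) and of Nfic-207 (chr10:81455229-81455902, score 113, midpoint in a coding exon). The highest of the 5, chr10:81429349-81430749 with a score of 800, ended 256 bp short of the Nfic-204 start on its downstream side. The main group of 3 starts, at 81427114 to 81427187, was not covered, and its nearest peak (chr10:81427547-81428123) scored 92.4 and lay 360 bp upstream. Nfic thus had its strongest start peaks at an alternative start, and a low one beside the group with most annotated transcripts. The centre of the 800 peak (chr10:81429949-81430148, plus strand) had a GC content of 71.0% and 17 CpG dinucleotides, in capitals, as many as the Nfia start peak.
Nfic start peak: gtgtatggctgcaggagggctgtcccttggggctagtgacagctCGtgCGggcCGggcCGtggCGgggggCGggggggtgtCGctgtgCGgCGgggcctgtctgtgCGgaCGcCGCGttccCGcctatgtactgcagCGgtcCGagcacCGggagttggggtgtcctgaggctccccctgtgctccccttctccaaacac

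The highest peak of Nfic lay away from every start, in intron 2. This was chr10:81412239-81414247, with a score of 915 over 2009 bp, and it was flanked on both sides, at gaps of under 500 bp, by peaks of 353 (chr10:81410943-81412175) and 192. Intron 9 held a peak of 552 (chr10:81401352-81402484) and intron 1 a peak of 262 (chr10:81432529-81433438). Its 16 peaks at starts or inside the gene had a median score of 131, beside 120 at Nfix, 109 at Nfia and 106 at Nfib. The median over the whole Nfic window was higher, at 190, with 13 of the 29 peaks outside the gene and 8 of these at neighbour starts. The intron 2 centre (chr10:81413143-81413342, plus strand) is printed beside the start peak because its score was higher with 6 CpG dinucleotides (capitals) and a GC content of 56.5%.
Nfic intron 2 peak: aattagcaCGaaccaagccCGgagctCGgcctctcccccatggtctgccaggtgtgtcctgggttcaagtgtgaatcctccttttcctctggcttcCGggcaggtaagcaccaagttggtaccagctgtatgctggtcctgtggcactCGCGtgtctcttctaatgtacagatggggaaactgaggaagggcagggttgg

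Nfix (chr8:84699876-84800344, minus strand, 100.5 kb), which in muscle controls the switch to the fetal programme, had 19 peaks inside the gene. With those near starts included, this came to 18.9 per 100 kb, at percentile 99.6 of long genes. Among them, chr8:84703290-84703942 and chr8:84704158-84704735 lay within Lyl1, and chr8:84722555-84723154 lay at the start of G430095P16Rik. Both genes lie inside the span of Nfix, so these peaks cannot be assigned to Nfix alone. The main group of 3 Nfix starts lies at the 5′ end of the gene, at 84800024 to 84800344, and was not covered. The nearest peak, chr8:84798815-84799603 with a score of 178, began 421 bp downstream. The other promoter peaks belonged to internal starts about 26 kb farther along. Peak chr8:84774374-84774892 with a score of 98.7 lay 5 bp upstream of the Nfix-203 start, and chr8:84774896-84775920 with a score of 417 lay 527 bp upstream of it. RefSeq places a further Nfix start at 84775828, inside this 417 peak, and others 964, 1499 and 4162 bp from the nearest peak. The highest peak inside the gene was away from every start, chr8:84785710-84787489 with a score of 620 over 1780 bp, with a peak of 245 beside it (chr8:84784496-84785332). The centres of the 417 and the 620 peak (chr8:84775308-84775507 and chr8:84786499-84786698, plus strand) are shown as the start and the distal peak of this gene, with 7 and 11 CpG dinucleotides in capitals and GC contents of 54.5% and 65.0%. At Nfix the distal centre was the more CpG-rich of the pair, unlike at Nfia and Nfic.
Nfix start peak: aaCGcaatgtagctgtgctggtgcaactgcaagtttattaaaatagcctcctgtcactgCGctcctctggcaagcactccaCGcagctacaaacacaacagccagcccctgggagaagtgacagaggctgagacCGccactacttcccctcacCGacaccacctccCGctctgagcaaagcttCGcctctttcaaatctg
Nfix distal peak: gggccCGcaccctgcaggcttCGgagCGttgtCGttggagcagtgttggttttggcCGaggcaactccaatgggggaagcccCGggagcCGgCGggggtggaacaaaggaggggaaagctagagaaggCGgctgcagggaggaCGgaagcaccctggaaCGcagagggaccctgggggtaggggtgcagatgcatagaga

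Across the family LSD1 peaks stood beside the main starts and not on them. Of 22 distinct NFI start positions, 20 had a peak within 1 kb (6 of 7 at Nfia, 3 of 4 at Nfib, 6 of 6 at Nfic and 5 of 5 at Nfix), beside 52.3% of all protein-coding starts. A peak covered 4 of the 22 (1 at Nfia, 3 at Nfic), beside 41.0% of all starts. Starts of a gene less than 500 bp apart were then joined, and the group with most protein-coding transcripts was called the main group. None of the 4 main groups was covered, and all 4 had a peak within 1 kb. The 5 main starts of Nfia share 1 nearest peak, and so do the 3 main starts at each of Nfib, Nfic and Nfix. Starts are therefore not separate observations, and the counts over 22 starts partly repeat those over the 4 groups. The shares of 52.3% and 41.0% are also not matched for CpG ratio. Over all genes 44.4% of main groups were covered. Among the 11550 genes with a peak within 1 kb of that group, 84.0% were, and the share was 87.3% in the CpG deciles of the NFI genes and 86.7% for genes with at least 4 starts. The start of the transcript tagged as principal was covered in 0 of 4 NFI genes, beside 80.0% of genes with a promoter peak. At Nfia, Nfib and Nfic this start belongs to the main group, so the second count adds a new start at Nfix alone. Both counts were chosen after their values were seen, and they concern 4 genes of 1 library.

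The gap had a different side and size at each gene. Peaks came nearest on the upstream side at Nfib (263 bp) and Nfic (360 bp) and on the downstream side at Nfia (266 bp) and Nfix (421 bp). On the opposite side the nearest peak was 1411 bp away at Nfia, 2775 bp at Nfib, 3986 bp at Nfic and 5649 bp at Nfix. The stretch free of peaks around the main group was thus 1902 bp at Nfia, 3499 bp at Nfib, 4418 bp at Nfic and 6389 bp at Nfix. Base composition in 1 kb around the groups ranged from a GC content of 61.0% at Nfib and 62.1% at Nfic to 69.2% at Nfia and 79.1% at Nfix, with CpG ratios of 0.870, 0.512, 0.950 and 1.10 in that order. Over all genes with a peak within 1 kb, the share of covered main groups was 88.0% at a GC content of 60 to 65%, 89.2% at 65 to 70% and 75.3% at 75 to 80%. Nfix fell in that last, less often covered class, and the part of base composition in the gap was not tested.

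**Figure D2:**
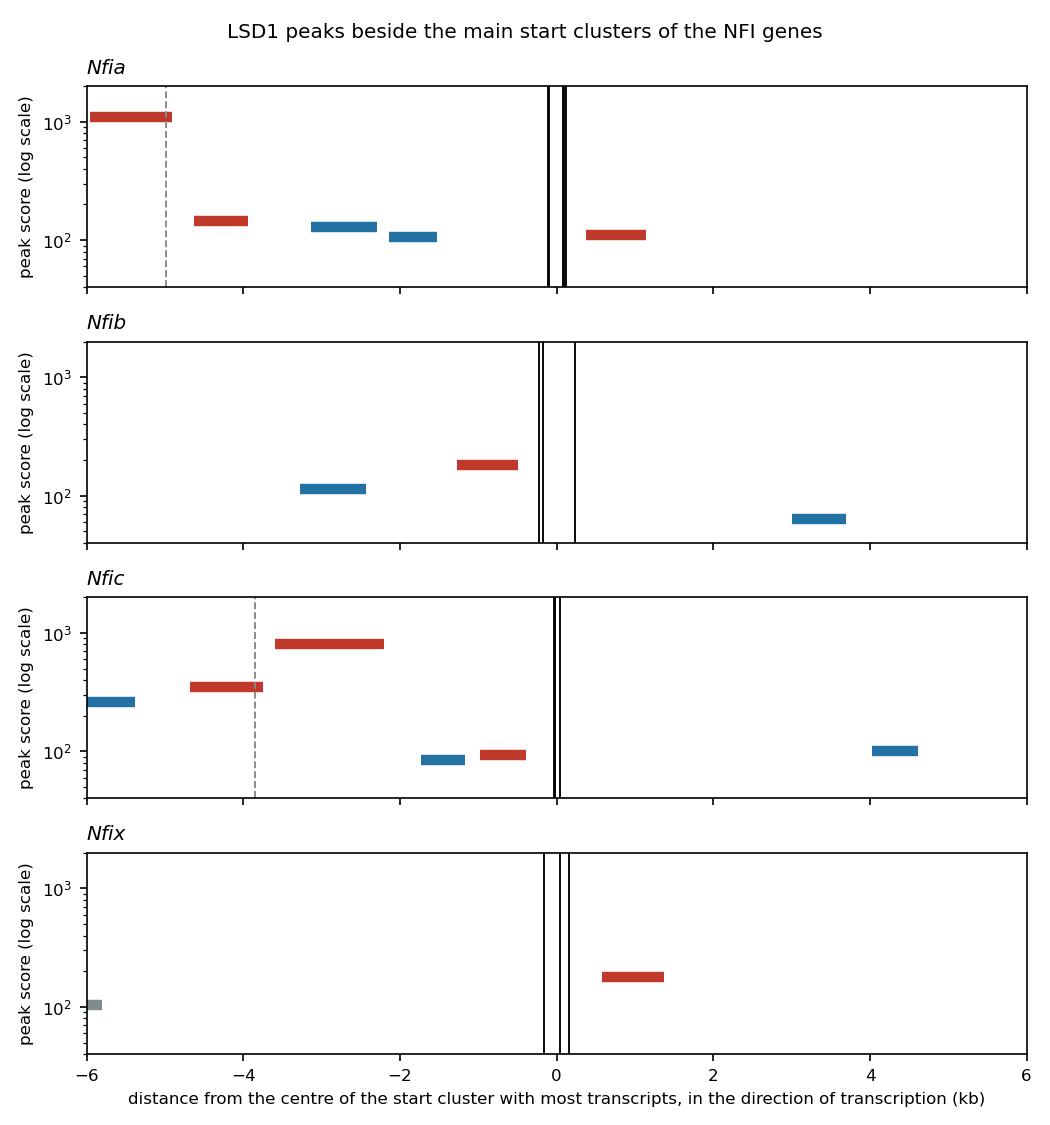
LSD1 peaks within 6 kb of the main start group of each NFI gene, drawn as horizontal segments over their extent (x axis, kb from the centre of the group along the direction of transcription) at the height of their score (y axis, log scale). Solid lines mark the starts of the main group and dashed lines other starts, red segments are peaks within 1 kb of a start, blue ones lie elsewhere in the gene and grey ones in the flank; no segment crosses a solid line.

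The 12 peaks near NFI starts had a median score of 163 and ranged from 92.4 to 1088, while the 70 other peaks inside the genes had a median of 107 and ranged from 64.0 to 915. The ranges overlapped from 92.4 to 915. Start peaks had a median CpG ratio of 0.607, body peaks of 0.250, and all peaks of the list of 0.237. In 3 of the 4 genes the highest peak inside the gene nevertheless lay more than 1 kb from every start, with 467 against 180 at Nfib, 915 against 800 at Nfic and 620 against 417 at Nfix. Nfia was the exception, with 1088 at a start and 779 as the best distal value. Among 6157 genes with a promoter peak and a further peak inside the gene, the highest was distal in 23.3%, and the share was 40.6% in the 530 of them with at least 10 peaks in the gene, as the NFI genes have. This count too was chosen after its values were seen.

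A search for the NFI site itself found it rarely. In the 200 bp around the peak midpoint, the complete palindrome (TTGGC and GCCAA, 5 bases apart) occurred in 1 of the 118 peaks (0.847%, Wilson 95% interval 0.150 to 4.64%), beside 22 of all 59175 peaks (0.0372%). The interval covers counting error only. The match lay in the intron 2 peak of Nfia with a score of 637, at chr4:97869259-97869273, 60 bp to the left of the midpoint. The same centre held another copy with 1 mismatch, 90 bp to its right, at chr4:97869349-97869363. Counted from 1 at the 5′ end of the palindrome, this copy differed by G11A. Sites with at most 1 mismatch occurred in 1 NFI window peak and in 0.843% of all peaks. Over whole peaks a further complete palindrome was found at chr10:81382146-81382160, 205 bp from the midpoint of a peak of 115 downstream of Nfic, which made 2 of 118 peaks beside 66 of 59175 (0.112%). Both sequences are shown because they are the only complete palindromes in these peaks. Capitals mark the palindromes and the mismatched copy, in chr4:97869226-97869425 and chr10:81382116-81382190 on the plus strand.
Nfia intron 2 peak: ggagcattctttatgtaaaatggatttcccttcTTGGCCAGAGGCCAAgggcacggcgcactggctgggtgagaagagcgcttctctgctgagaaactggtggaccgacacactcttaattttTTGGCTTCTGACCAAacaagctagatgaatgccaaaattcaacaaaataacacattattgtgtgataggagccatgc
Nfic downstream peak: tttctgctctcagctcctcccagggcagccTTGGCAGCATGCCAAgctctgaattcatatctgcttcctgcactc

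The single element TTGGCA, on either strand, was found in the centre of 15 of the 118 peaks (12.7%, 7.86 to 19.9%), beside 11.7% of all peaks and 9.83% of windows placed 2 kb from the peaks. It occurred in 5 peaks at Nfia, 4 at Nfib, 2 at Nfic and 4 at Nfix, and these counts do not separate the genes from each other or from the list. The intron 4 peak of Nfia (chr4:98003370-98004581) held 3 copies. Of the 15 peaks, 1 lay near an NFI start, the peak of 98.7 beside Nfix-203. Anywhere in the peak, the element was found in 44 of 118 (37.3%), beside 35.1% of all peaks.

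Sites of other factors active in fat cells were searched in the same way. The AP-1 site (TGACTCA or its reverse complement TGAGTCA) was found in the centre of 5 peaks (4.24%, 1.82 to 9.54%), beside 6.53% of all peaks and 3.51% of windows 2 kb away. An EBF palindrome (TCCC and GGGA, 2 bases apart) was found in 0 of 118 centres, which allows a share of up to 2.54% (3 peaks), beside 0.713% of all peaks. A PPAR element (AGGTCA repeated after 1 base, either strand) was found in 1 centre, in a peak of 105 in intron 2 of Nfia, beside 0.0507%. The C/EBP palindrome (TTGC joined to GCAA) was found in 0, with the same upper limit, beside 0.0642%. Anywhere in the peak, the AP-1 site was found in 10 of 118 (8.47%), beside 18.7% of all peaks. The EBF palindrome was found in 1 whole peak (0.847%), beside 2.95%. Over whole peaks the PPAR element was found in 1 (0.847%), beside 0.203%, and the C/EBP palindrome in 0, beside 0.275%. Each of these is an exact match on strict letters and a description of sequence.

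Many of the highest peaks in the NFI windows belonged to neighbouring genes. Of 22 protein-coding neighbours, 16 had a peak within 1 kb of a start, 8 of 12 around Nfic, 7 of 9 around Nfix and 1 of 1 at Nfia, while the Nfib window held no other protein-coding gene. Downstream of Nfic these were Hmg20b, which encodes a subunit of the LSD1 complex with CoREST (score 431), Mfsd12, a lysosomal transporter (857), Fzr1, an activator of the anaphase-promoting complex (1453), Dohh, which modifies the translation factor eIF5A (863), and the small membrane protein gene Smim24 (145). Upstream of Nfic were Celf5, an RNA-binding protein (190), Ncln, a protein of the endoplasmic reticulum membrane (1540), and the G protein gene Gna15, whose promoter peak of 317 lay outside the window. The 242 peak of this window (chr10:81362364-81363141) lay inside Mfsd12. In the Nfix window the bound neighbours included the immediate-early gene Ier2 (1046), Nacc1 and the tRNA methyltransferase gene Trmt1, which share a peak of 92.7, G430095P16Rik (85.9), Gadd45gip1 of the mitochondrial ribosome (171) and Calr, the chaperone calreticulin (351). A peak of 281 (chr8:84659954-84660920) lay just beyond Ier2. E130114P18Rik, at Nfia, had 110, from the same peak that lay nearest to the main starts of Nfia. No promoter peak was found at 4930404N11Rik, Gm48551, Gm48552, the receptor gene S1pr4, Lyl1 or Dand5. The 15 peaks at neighbour starts had a median score of 329, above the medians of 163 at NFI starts and 107 in NFI bodies. Without the 17 peaks near any neighbour start, 101 peaks remained in the windows, with a median of 114 against 119 with them.

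Set beside 2 other transcription factor families of 4 genes, the NFI genes had more peaks per length and a lower share of covered starts. EBF factors are partners in the brown fat programme, and TEAD factors act in the Hippo pathway. All 4 genes had a promoter peak in each family. The highest promoter scores were 718, 250, 912 and 872 at Ebf1, Ebf2, Ebf3 and Ebf4, and 82.4, 117, 97.3 and 205 at Tead1, Tead2, Tead3 and Tead4. The NFI scores of 180 to 1088 thus spanned the EBF range and overlapped the TEAD range at Nfib alone. Window peaks were 8.93 per 100 kb for the NFI genes, 6.88 for the TEAD and 4.90 for the EBF genes, with median scores of 119, 104 and 111. The NFI value rests on Nfic and Nfix, since Nfia lay within the range of the other 8 genes (4.48 to 11.8) and Nfib, at 4.07, below it. Peaks covered 4 of 22 starts in the NFI, 8 of 10 in the EBF and 10 of 26 in the TEAD family, and 0, 3 and 2 of the 4 main groups. These families differ in the number of starts and in gene length, and the differences carry no test.

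**Figure D3:**
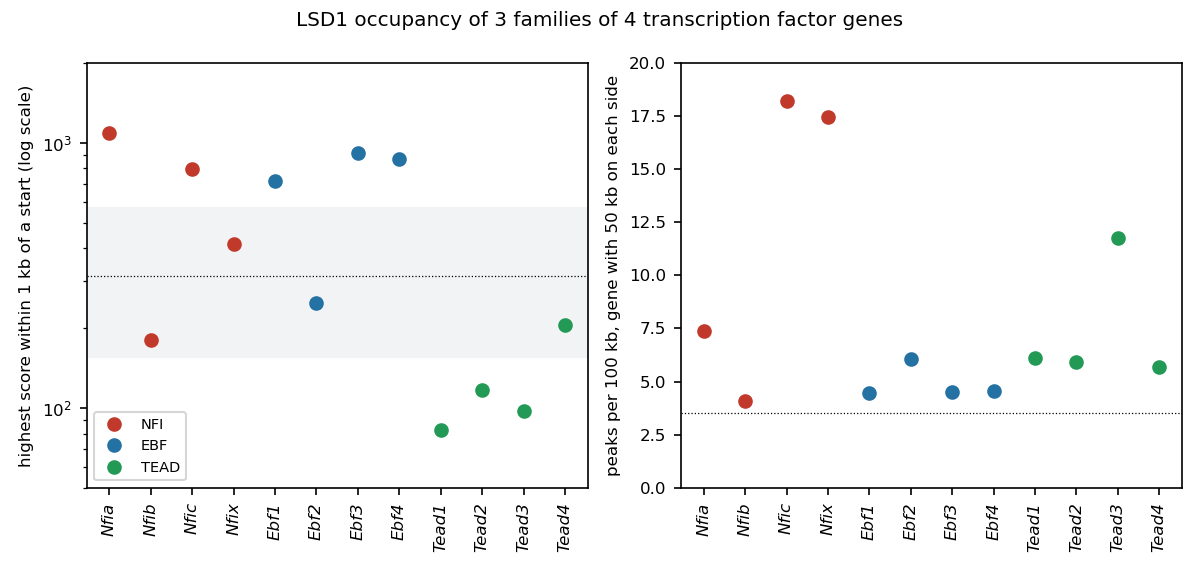
Highest LSD1 score within 1 kb of a start (left, log scale) and peaks per 100 kb of gene with 50 kb on each side (right) for the 4 genes of the NFI, EBF and TEAD families, 1 point per gene. Dotted lines give the medians over genes with a promoter peak (315) and over all genes (3.54) and the shaded band their quartiles (156 and 570); Nfic and Nfix stand above the other genes at right, and Nfib lies lowest of its family in both panels.

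As background to the family, partner factors of NFI, brown programme genes, general adipocyte genes and myogenic genes were also looked up. Of 27 genes of 4 groups, 20 had a promoter peak, beside the 55.8% of all genes. The 9 partner factors all had one, at Cebpa (1619), Nr3c1, the glucocorticoid receptor (1060), Klf15 (878), Cebpb (775), Cebpd (512), Pparg (401), Ebf2 (250), Rxra (223) and Prdm16 (206). Their median of 512 lay below the Nfia and Nfic scores and above those of Nfix and Nfib. The promoter CpG ratios of the partners ran from 0.713 at Ebf2 to 1.03 at Klf15. All but Ebf2 reached the ratio of the lowest NFI gene, 0.810 at Nfic. Among all genes that reached it, 91.3% had a promoter peak, so 9 of 9 is near that share. Of 9 genes of the brown programme 5 had one, at Ppargc1a (403), Cox7a1 (286), Ppara (242), Elovl3 (120) and Cidea (103), and Ucp1, Dio2, Cox8b and Cpt1b had none. All 6 general adipocyte genes had one, at Pnpla2 (1293), Lpl (467), Lipe (331), Fabp4 (110), Plin1 (93.9) and Adipoq (76.0). The 3 myogenic genes Myod1, Myog and Myf5, whose programme is repressed in brown fat, had none. Their promoter CpG ratios were 0.480, 0.344 and 0.406. Over all genes, 25.6% of main groups with ratios of 0.274 to 0.417 had a peak within 1 kb. The share was 54.5% at ratios of 0.417 to 0.569. The main start group was covered in 16 of the 20 genes with a peak, among them 7 of the 9 partners, beside 0 of 4 in the NFI family. The exceptions among the partners were Pparg and Ebf2.

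Width and score went together in the NFI windows as in the whole list. Widths ran from 502 to 2245 bp with a median of 650.5 bp, beside 628 bp in the list. Compared with peaks of like width, 16 of the 118 (13.6%) were in the highest 10% of scores and 11 (9.32%) in the lowest 10%. Nfic contributed 8 of the 16, Nfia 4, Nfix 3 and Nfib 1. Of the 8 in the Nfic window, 7 lay in or at the neighbouring genes Mfsd12, Fzr1, Dohh and Ncln and 1 inside Nfic, so that 1 of the 16 peaks at starts of Nfic or inside it (6.25%) and 9 of the 82 such peaks of the family (11.0%) were in the highest 10%. Many low peaks were not distinct in value. In the list 76.4% of peaks share their exact width and score with another peak, 91.4% of those below the median score and 61.5% above it, and in the NFI windows 87 of 118 did (73.7%). A width of 612 bp with a score of 133.62 occurred at Nfia, Nfib and Nfix and in 13 peaks of the list.

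**Figure D4:**
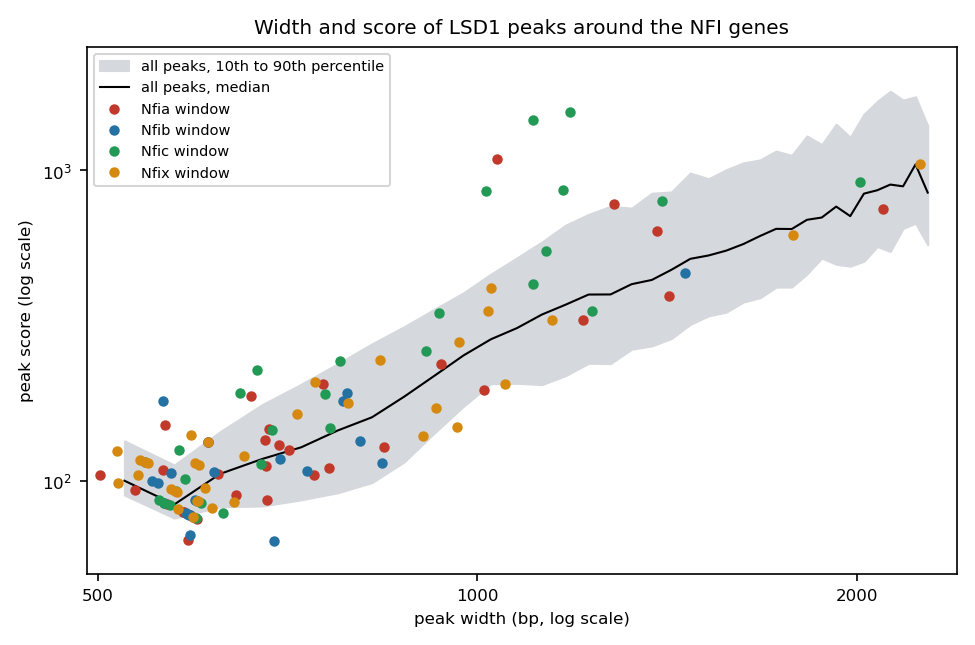
Width (x axis, bp, log scale) and score (y axis, log scale) of the 118 peaks in the NFI windows, coloured by window, over the median and the range from the 10th to the 90th percentile of all peaks of like width. Of the points above the band, those of the Nfic window are the most numerous, with 8 of 16 in the highest 10% for their width, of which 7 lie in or at neighbouring genes and 1 inside Nfic.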

How the data were processed

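LSD1 was measured by ChIP-seq in 1 library, with 1 input library whose values were not used here. Bowtie2 mapping to mm10 is stated per the labels' protocols, and the submitters' processing notes list MACS 1.41. Not given in the sources used here are read filters, the version of Bowtie2, the peak threshold and how the input entered peak calling. For each peak the deposited list gives chromosome, start, end and the authors' score, without counts. Starts were converted to count from 1.

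Genes and starts came from GENCODE M21 on chromosomes 1 to 19, X and Y, sequence from GRCm38.p6, and the RefSeq starts from RefSeq (GRCm38.p6). RefSeq promoters matched 3 of the 4 genes, and all 6 equalled the genome at their coordinates. Overlap meant at least 1 bp. The CpG ratio of a start was taken in 1 kb around it. Calculations used Python 3.11.15, numpy 2.4.6, pandas 2.3.3 and matplotlib 3.10.9, and the counting code was checked on simulated data. The text names the 4 members, each peak near their starts, the 5 highest other peaks per window, bound neighbours (1 of them is not reported here), and the listed partner and comparison genes. Members and lists were chosen with earlier results of these data known. The centres of distal peaks were added to the printed sequences after seeing the values. The start peak of Nfib is not printed because it overlaps an exon. With 1 library no test was made. Alternatives were other promoter widths, flanks, score limits, merging of peaks, motif definitions and start groups.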

Additional observations from a re-analysis of the deposited data

How the results depend on the processing

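Of 41 alternatives, 34 were planned. The other 7, on the main start groups and on highest peaks away from starts, were chosen after seeing the data. A count was taken as in place when it changed by at most 1.5-fold, and a median when it stayed within the main interval. By this rule 31 left their result in place. They include changed counts, such as 83 window peaks without flanks in place of 118. Keeping peaks at or above the median score left 69 window peaks with a median of 190 (main interval 109 to 139) and 11 of 22 starts with a peak. Keeping the highest decile left 17 window peaks with a median of 779, 3 starts and 9 of the 27 genes looked up as background. The NFI palindrome was found in 2 peaks over whole peaks, and the single element in 15 centres. Main groups covered rose from 0 to 4 when the groups were widened by 500 bp. The count stayed at 0 with starts joined at 100 bp or 1 kb and with peaks under 500 bp apart merged. Principal starts, which lie outside the main group at Nfix alone, also gave 0. These changes follow from how the alternatives are built. Promoter peaks were found at 4 of 4 NFI genes under each alternative but the highest decile, where Nfib had none (3 of 4). No paired analysis was possible because there is 1 LSD1 library. The depth behind the peaks is unknown, so absence from the list sets no limit on binding.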

Other observations

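RefSeq gives Nfia a start outside the window taken here, at chr4:97581943, within the span of E130114P18Rik. The nearest LSD1 peak, chr4:97578303-97578861, scored 110 and lay 3.08 kb away. Several peaks of the NFI windows stood within 1 kb of starts of noncoding genes and not of protein-coding ones. These were the peak of 394 at Gm12676 upstream of Nfia, a peak of 114 at Gm11266 and the 191 peak at n-R5s188 inside Nfib, a peak of 86.4 at Gm16104 inside Nfic, a peak of 83.3 at Gm16106 and Gm25595 upstream of Nfic, and peaks of 85.5 and 134 at Gm26664 downstream of Nfix.

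Spacing of peaks differed between the genes. The median distance between neighbouring peaks was 4735 bp at Nfia, 16227 bp at Nfib, 3022 bp at Nfic and 4054 bp at Nfix, beside 12732 bp over the list. The longest stretch without a peak was 83.7 kb at Nfib, 18.97 kb at Nfic and 18.96 kb at Nfix.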
